A study of Mus musculus with 6 samples.

Results

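The IL-6 cytokine family and the colony-stimulating factors were examined through 10 genes chosen by name: the 6 ligands Il6, Lif, Il11, Csf1, Csf2 and Csf3, and the 4 receptor subunits Il6st, Lifr, Osmr and Il6ra. They were taken from 54532 genes in the deposited mouse tables, and 10 of 10 were detected and passed the expression filter that left 14679 genes for testing. RNA-seq was done on primary myoblasts from the hind limbs of 3-week-old mice, cultured to day 2 in DMEM with serum and added FGF, with 3 libraries labelled WT and 3 labelled eIF5A knockout (eIF5A-KO). The study describes its tamoxifen-induced knockout animals as Pax7 CreERT2/+;eIF5A f/f, with Cre expressed from the Pax7 locus, so cells that have never expressed Pax7 would keep the gene. Its WT controls are given as Pax7 CreERT2/+ in one place and as Pax7+/+;eIF5A f/f in another, so whether the WT libraries here carry Cre is not known. The study calls its RNA-seq experiments triplicate, but neither it nor the labels say whether the libraries came from separate animals or cultures, so the p-values measure the spread between these libraries, which may be technical.

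IL-6, LIF and IL-11 are secreted cytokines that signal through a shared receptor subunit, gp130, encoded by Il6st. Each binds a partner (IL-6 and IL-11 their own alpha chains, LIF the LIF receptor) and the assembled complex activates JAK kinases and the transcription factor STAT3, which induces its own inhibitor Socs3. Oncostatin M uses gp130 with the OSM receptor. The colony-stimulating factors support myeloid cells through receptors of their own: CSF1 the macrophage lineage through CSF1R, CSF2 through a chain pair that includes the common beta chain, and CSF3 the neutrophil lineage through CSF3R. In muscle, LIF and IL-6 are known as factors made by the muscle itself that act on myoblast growth.

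The libraries held 16281216 to 17734551 counts, and the level that 3 counts allow was 0.159 to 0.194 CPM (gene counts relative to library size, scaled by edgeR's TMM factors), which covers counting error only. The knockout label was not matched by a lower count of its target. Eif5a, the translation factor named by that label, stood at 1603, 986 and 1238 CPM in WT and at 1364, 1459 and 1059 CPM in eIF5A-KO. The log2 difference was 0.021 with a 95% interval of -0.51 to 0.55, so eIF5A-KO is used throughout as the label of the libraries. Counts over the whole gene can include exons outside the deleted segment, and so check a partial deletion only in part. The study itself measured the knockout in muscle stem cells (satellite cells) by RT-PCR and by immunostaining, and reports it as successful. It also shows a western blot of eIF5A in such cells from knockout and WT mice. Markers of other cells were present beside those of myoblasts: Myod1, the myogenic transcription factor, was at 196 to 550 CPM and Pecam1, an endothelial adhesion molecule, at 282 to 820 CPM. Summed over their lists, 15 myogenic markers came to 947 to 2271 CPM in WT and 939 to 1390 in eIF5A-KO, 10 endothelial markers to 1364 to 2836 and 2443 to 3661, and 9 mural cell markers to 425 to 782 and 817 to 940. The mural sums did not overlap between the groups and the others did. Of the tested genes in these lists, 4 of 13 myogenic markers were lower at an unadjusted p of 0.05 (4.02% of all tested genes were), and 4 of 9 mural and 1 of 10 endothelial markers were higher (2.74% of all tested genes were). The mural gene Myh11 passed the edgeR adjusted test (adjusted p = 0.0486), but no gene passed it with DESeq2 size factors or with library size alone. Macrophage markers (16 genes) came to 70.6 to 153 and 69.7 to 189 CPM, and fibroblast markers (12 genes) to 2984 to 3644 and 2923 to 3738 CPM, with 1 of 13 and 2 of 11 tested genes higher at that threshold and 0 lower. In RNA from bulk cultures, more cells of a type and more RNA per cell cannot be told apart, and the part of these cells in the results below was not tested. WT replicate 1 also had the largest mitochondrial share, 5.75% of counts against 2.11% to 3.50% elsewhere.

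The transcript levels of the 10 genes spanned more than 2 orders of magnitude per unit of gene length. On the deposited FPKM scale (fragments per kilobase relative to library size, which corrects for length), Csf1 had the top mean level over the 6 libraries, 436 with a range of 353 to 524. Il6st came next at 56.6 (41.4 to 70.9), and neither range touched that of its neighbour. Lif (mean 16.4), Csf3 (15.8), Il6 (11.8) and Osmr (11.4) followed, with overlapping ranges. Osmr, 9.27 at its lowest, did not overlap the next gene Lifr, whose levels ran from 3.12 to 4.54. Lifr (3.95), Il11 (1.73), Il6ra (1.72) and Csf2 (1.30) closed the order, again with overlapping ranges. Among the ligands Csf1 made up 86.1% to 92.4% of their summed FPKM in every library. Gp130 transcript exceeded those of its partners in each library: Il6st was 23.0 to 47.5 times Il6ra, 10.8 to 17.0 times Lifr and 3.92 to 5.70 times Osmr.

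**Figure D1:**
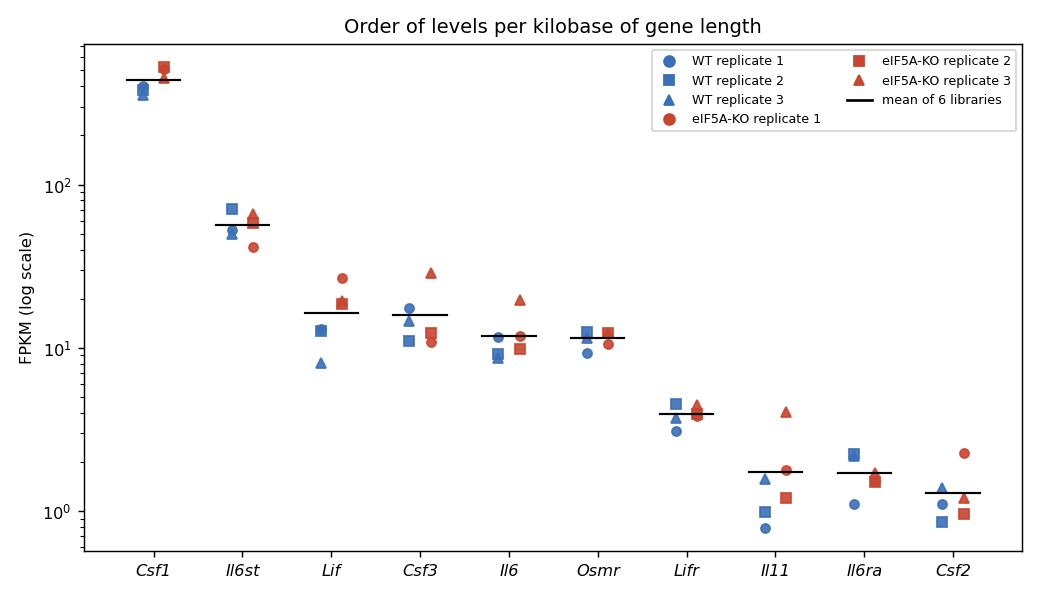
FPKM of the 10 genes on a logarithmic axis, 1 point per library, ordered by mean level. Csf1 lay between 353 and 524 FPKM and Il6st between 41.4 and 70.9, both clear of their neighbours, whereas Lif, Csf3, Il6 and Osmr overlapped.

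When the libraries labelled eIF5A-KO were compared with WT, none of the 10 genes passed the adjusted test (edgeR's quasi-likelihood test, Benjamini-Hochberg adjusted p under 0.05 over all tested genes), as against 0.0204% of all tested genes. Lif alone passed an unadjusted p of 0.05, 1 of 10 against 6.76% of tested genes. It was higher in eIF5A-KO, the direction of 2.74% of tested genes, while 0 of 10 passed in the lower direction against 4.02%. By DESeq2, none of the 10 passed the adjusted test, against 0.627% of tested genes, and 3 passed the unadjusted one, against 6.87%. The groups of 2 of the 10, Lif and Csf1, did not overlap, both being higher in eIF5A-KO, against 12.5% of tested genes in either direction and 5.68% in that direction. Of the 10 log2 differences 8 were above 0, against 7097 of all 14679 tested genes. The median of the 10 was 0.31, against -0.011 over all tested genes. Without eIF5A-KO replicate 3, the ligands were at 0.15 (Il6), 1.00 (Lif), 0.39 (Il11), 0.45 (Csf1), 0.48 (Csf2) and -0.31 (Csf3). The receptor subunits were then at -0.22 (Il6st), 0.032 (Lifr), 0.037 (Osmr) and -0.28 (Il6ra).

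**Figure D2:**
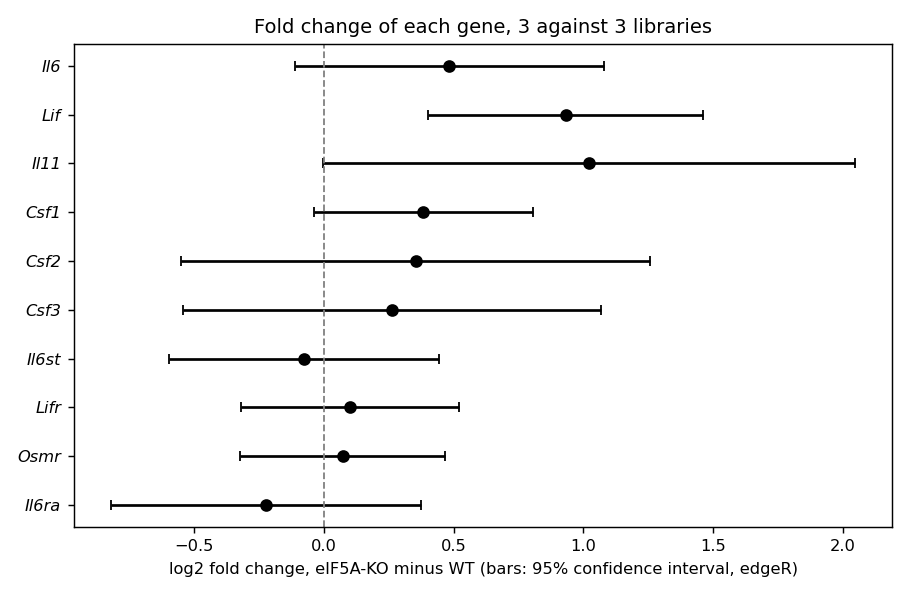
Log2 difference (eIF5A-KO minus WT) for each gene with its 95% interval from the edgeR fit. Only the interval of Lif, 0.40 to 1.46, excluded 0, and the receptor subunits lay between -0.22 and 0.10.

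Lif, which encodes leukaemia inhibitory factor, lies on chromosome 11 at 4257557 to 4272514 (mm10, plus strand, up to 4 exons). Its levels were 57.3, 55.7 and 35.2 CPM in WT and 117, 81.0 and 85.0 CPM in eIF5A-KO. Every eIF5A-KO library was above every WT library. The means were 49.4 ± 12.3 and 94.3 ± 19.6 CPM (SD, n = 3 per group), a ratio of 1.91 with a 95% interval of 1.32 to 2.75. The log2 difference was 0.93 ± 0.24 (SE) by edgeR, with an unadjusted p of 0.00314, rank 115 of 14679 genes, and a Benjamini-Hochberg adjusted p of 0.398. Leaving out any 1 library kept the unadjusted p of Lif under 0.05, with log2 differences of 0.74 without WT replicate 3 to 1.06 without WT replicate 1. With no expression filter, Lif passed the adjusted test (adjusted p = 0.00419 by edgeR). In that setting 249 genes passed in all, against 3 with the filter. Lif did not pass the adjusted test in any other alternative. Relative to the LIF receptor transcript, Lif FPKM was 2.15 to 4.16 times Lifr in WT and 4.33 to 6.93 times in eIF5A-KO.

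Csf1 encodes the macrophage growth factor CSF1 and lies on chromosome 3 at 107741048 to 107760469 (minus strand, up to 9 exons). It stood at 2155, 2012 and 1878 CPM in WT and at 2708, 2783 and 2390 CPM in eIF5A-KO. These groups were also fully separated, though by a smaller ratio than for Lif. The means were 2015 ± 139 and 2627 ± 209 CPM (SD, n = 3 per group), a ratio of 1.30 with an interval of 0.974 to 1.75 that includes 1. By edgeR, the log2 difference was 0.38 ± 0.19 (SE), with an unadjusted p of 0.0701 and an adjusted p of 0.799. In counts, these levels rested on 31788 to 47002 per library.

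RefSeq promoter windows (GRCm38.p6, 250 bases before to 50 after the start site) were found for 9 of the 10 genes. Those of Lif and Csf1 are shown because their groups did not overlap, and that of Il6 because it holds the most matches to the motifs searched. The capitals mark matches on either strand to AP-1 (TGANTCA), C/EBP (TTNNGCAA), the CRE half-site (TGACG), the NF-kB motif and STAT (TTCNNNGAA). The Lif window is chr11:4257318-4257617 on the plus strand, that of Csf1 chr3:107760420-107760719 on the minus strand and that of Il6 chr5:30012864-30013163 on the plus strand, each printed 5′ to 3′ along its gene.
Lif: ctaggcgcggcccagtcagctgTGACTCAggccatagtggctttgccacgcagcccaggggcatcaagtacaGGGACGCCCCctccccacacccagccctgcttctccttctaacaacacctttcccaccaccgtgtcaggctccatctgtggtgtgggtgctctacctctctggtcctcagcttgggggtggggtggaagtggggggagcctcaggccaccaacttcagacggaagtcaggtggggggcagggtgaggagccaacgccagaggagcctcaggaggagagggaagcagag
Csf1: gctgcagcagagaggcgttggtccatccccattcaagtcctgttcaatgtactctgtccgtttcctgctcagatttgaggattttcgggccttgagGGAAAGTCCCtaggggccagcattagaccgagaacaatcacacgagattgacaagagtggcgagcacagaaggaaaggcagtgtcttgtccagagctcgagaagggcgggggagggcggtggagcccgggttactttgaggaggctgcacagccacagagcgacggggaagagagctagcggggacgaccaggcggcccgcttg
Il6: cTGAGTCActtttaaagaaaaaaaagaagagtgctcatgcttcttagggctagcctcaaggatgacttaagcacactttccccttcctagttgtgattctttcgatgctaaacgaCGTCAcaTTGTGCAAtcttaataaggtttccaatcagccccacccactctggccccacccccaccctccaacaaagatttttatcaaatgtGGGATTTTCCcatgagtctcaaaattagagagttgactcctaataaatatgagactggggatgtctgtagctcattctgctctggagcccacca
Counted from the start site, Lif had AP-1 at -228 to -222 and NF-kB at -178 to -169, and Csf1 had NF-kB at -154 to -145. Il6 had AP-1 at -249 to -243, the CRE half-site at -135 to -131, C/EBP at -128 to -121 and NF-kB at -44 to -35. Of 32851 promoter windows of this length, 7.81% held AP-1, 8.46% NF-kB, 10.8% C/EBP, 20.8% the CRE half-site and 8.30% STAT. Among the others, Csf2 held C/EBP at -145 to -138, Osmr AP-1 at 4 to 10, Il6ra the CRE half-site at -236 to -232 and 1 of 2 Il11 start sites AP-1 at -98 to -92. A match is a description of the letters and not evidence of binding.

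**Figure D3:**
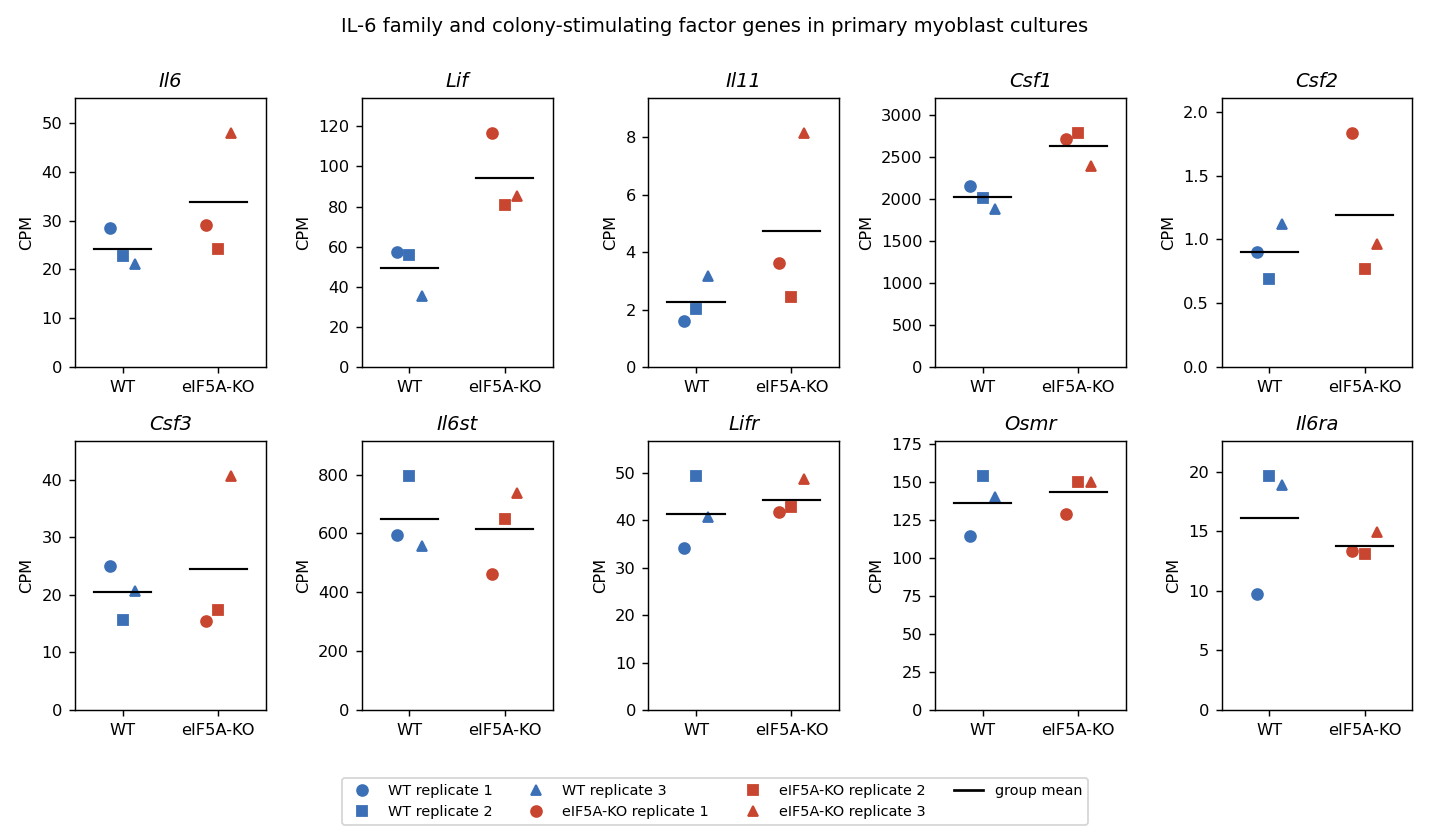
CPM of each of the 10 genes in the 6 libraries, WT and eIF5A-KO, 1 point per library with the group mean. Lif and Csf1 have separate groups, and Il6, Il11 and Csf3 have 1 eIF5A-KO library, replicate 3, above the other 5.

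Il6, Il11 and Csf3 shared a pattern in which 1 library stood apart. Il6, a mediator of inflammation also made by working muscle, lies on chromosome 5 at 30013114 to 30019981 (plus strand, up to 5 exons), and was at 28.6, 22.6 and 21.1 CPM in WT and 29.1, 24.2 and 48.0 CPM in eIF5A-KO. The groups overlapped, with eIF5A-KO replicate 3 at 1.65 times the next library. The log2 difference was 0.48 ± 0.26 (SE) by edgeR, with an adjusted p of 0.815, and 0.15 without eIF5A-KO replicate 3.

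Csf3, which encodes the neutrophil growth factor G-CSF, lies on chromosome 11 at 98701263 to 98703629 (plus strand, 5 exons). Its levels were 25.0, 15.7 and 20.7 CPM in WT and 15.5, 17.4 and 40.7 CPM in eIF5A-KO. Without replicate 3, the eIF5A-KO libraries were not above WT: the log2 difference of 0.26 ± 0.36 (SE, edgeR adjusted p = 0.948) became -0.31.

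Il11, a gp130 ligand known for its part in fibrosis, lies on chromosome 7 at 4772373 to 4782857 (minus strand). It was at 1.62, 2.02 and 3.19 CPM in WT and 3.61, 2.43 and 8.16 CPM in eIF5A-KO. WT replicate 3 overlapped eIF5A-KO replicate 2, and eIF5A-KO replicate 3 was at 2.26 times the next library. The log2 difference was 1.02 ± 0.46 (SE) by edgeR, with an unadjusted p of 0.0508 and an adjusted p of 0.738, and 0.39 without that replicate. Its counts ran from 25 to 144.

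Among all tested genes 13.1% were highest in eIF5A-KO replicate 3 and 0.668% were there at least 1.5 times the next library, a limit chosen after these values were seen. The same library had the largest sums of endothelial and mural markers, 3661 and 940 CPM. It also had the smallest sums of myogenic, fibroblast and macrophage markers, 939, 2923 and 69.7 CPM. The part of these sums in the levels of Il6, Il11 and Csf3 was not tested.

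Csf2, which encodes GM-CSF, lies on chromosome 11 at 54247271 to 54249667 (minus strand, 4 exons). It had the lowest mean CPM of the 10 genes, at 0.905, 0.689 and 1.12 CPM in WT and 1.84, 0.770 and 0.964 in eIF5A-KO. These values rest on 13 to 30 counts, and the groups overlapped. The log2 difference of 0.35 ± 0.40 (SE, edgeR adjusted p = 0.938) became -0.045 without eIF5A-KO replicate 1. An antisense gene, Gm12223, overlaps it, and the library kit is not stated to keep strand, so reads of either cannot be told apart.

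**Figure D4:**
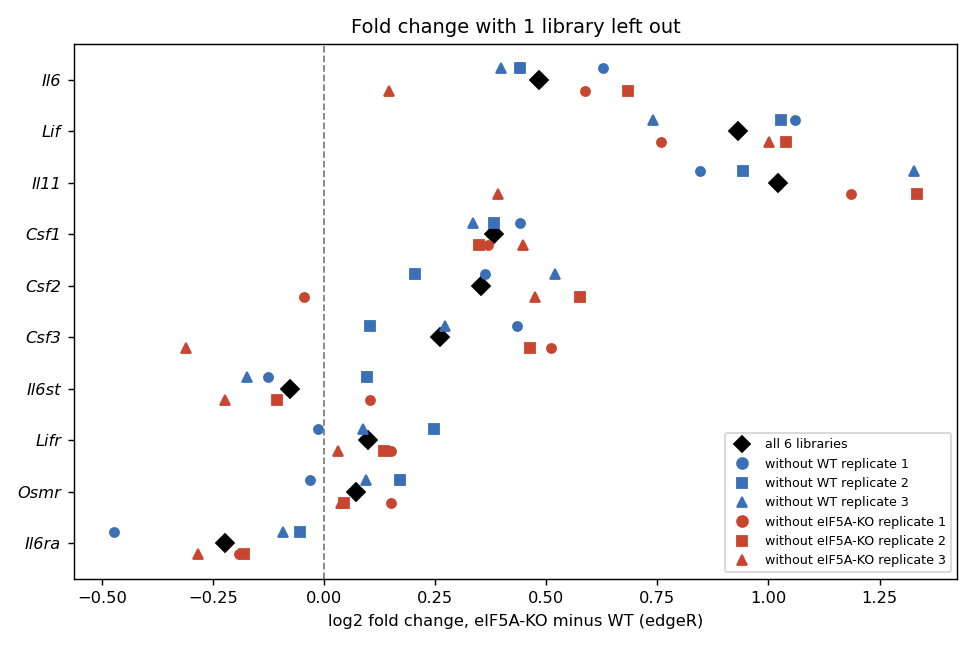
Log2 difference (eIF5A-KO minus WT) of the 10 genes with each of the 6 libraries left out in turn, beside the value from all 6. Lif stayed between 0.74 and 1.06 and Csf3 crossed 0, reaching -0.31 without eIF5A-KO replicate 3.

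With all libraries, none of the 4 receptor subunits passed an unadjusted p of 0.05 by edgeR and the groups of each overlapped. Il6st, the shared gp130 subunit on chromosome 13 at 112464070 to 112510086 (plus strand, up to 18 exons), was at 596, 796 and 558 CPM in WT and 463, 649 and 738 CPM in eIF5A-KO. Its ratio of means was 0.949 with a 95% interval of 0.661 to 1.36. A log2 difference of -0.076 (edgeR adjusted p = 0.976) became 0.098 without WT replicate 2 and 0.10 without eIF5A-KO replicate 1, so its sign rests on single libraries.

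Lifr, the LIF receptor subunit on chromosome 15 at 7090614 to 7197489 (plus strand, up to 20 exons), stood at 34.1, 49.4 and 40.6 CPM in WT and 41.7, 42.8 and 48.6 CPM in eIF5A-KO. The ratio was 1.07 with an interval of 0.801 to 1.43. Osmr, the oncostatin M receptor subunit on the same chromosome at 6813577 to 6874969 (minus strand, up to 18 exons), stood at 114, 154 and 140 CPM in WT and 129, 150 and 150 CPM in eIF5A-KO. Here the ratio was 1.05 with an interval of 0.799 to 1.38. These intervals leave room for changes of about the size seen in Csf1, so the receptors cannot be called unchanged. Both differences changed sign without WT replicate 1, at -0.013 for Lifr and -0.032 for Osmr on the log2 scale.

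Il6ra, the alpha chain that binds IL-6, lies on chromosome 3 at 89864059 to 89913196 (minus strand, up to 10 exons). It was at 9.76, 19.7 and 18.9 CPM in WT and 13.3, 13.1 and 15.0 CPM in eIF5A-KO. The eIF5A-KO libraries lay inside the WT range. The log2 difference was -0.22 ± 0.27 (SE, edgeR adjusted p = 0.943), with a range of -0.47 without WT replicate 1 to -0.054 without WT replicate 2. Among the 16 alternatives run, it passed the unadjusted threshold only without WT replicate 1. An antisense gene, Gm42809, overlaps Il6ra and the reads of either cannot be told apart. All 4 subunits were highest in WT replicate 2, as were 24.6% of tested genes, and Lifr, Osmr and Il6ra were lowest in WT replicate 1.

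The rest of the pathway was described by 8 lists holding 78 genes, of which 68 were tested. None passed the edgeR adjusted test, and 9 passed an unadjusted p of 0.05, 8 higher and 1 lower in eIF5A-KO, which is 13.2% against 6.76% of all tested genes. Their median log2 difference was 0.098. The JAK-STAT signalling list had 0 of 11 genes past the unadjusted threshold and a median of 0.059, and the feedback list 0 of 9 and 0.020. Stat3 stood at 183, 301 and 244 CPM in WT and 257, 273 and 277 CPM in eIF5A-KO. Socs3, the inhibitor that STAT3 induces, was at 112, 125 and 121 CPM and at 125, 130 and 107 CPM. Both genes overlapped between the groups, with edgeR adjusted p-values of 0.949 and 0.993. Of 15 genes known to be induced by STAT3, 1 passed the unadjusted threshold, 6.67% against 6.76% of all tested genes.

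That gene was Cebpb, a transcription factor of cytokine genes, at 261, 280 and 280 CPM in WT and 564, 389 and 331 CPM in eIF5A-KO (edgeR unadjusted p = 0.0155, adjusted p = 0.557). Its groups did not overlap, and the gene Tmem189 shares its locus. Among 11 genes of cytokine mRNA decay, 2 were past the unadjusted threshold, 18.2% against 6.76% of all tested genes. Zc3h12a, an RNase that degrades Il6 transcripts, was at 34.1, 47.7 and 44.5 CPM and at 75.4, 57.0 and 54.9 CPM (adjusted p = 0.577 by edgeR). Zfp36, which binds AU-rich cytokine mRNAs, was at 97.8, 176 and 150 CPM and at 289, 194 and 166 CPM (adjusted p = 0.738 by edgeR). The list as a whole had a median of -0.029, and the inflammatory inducers had 0 of 11 past the threshold and a median of 0.19.

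**Figure D5:**
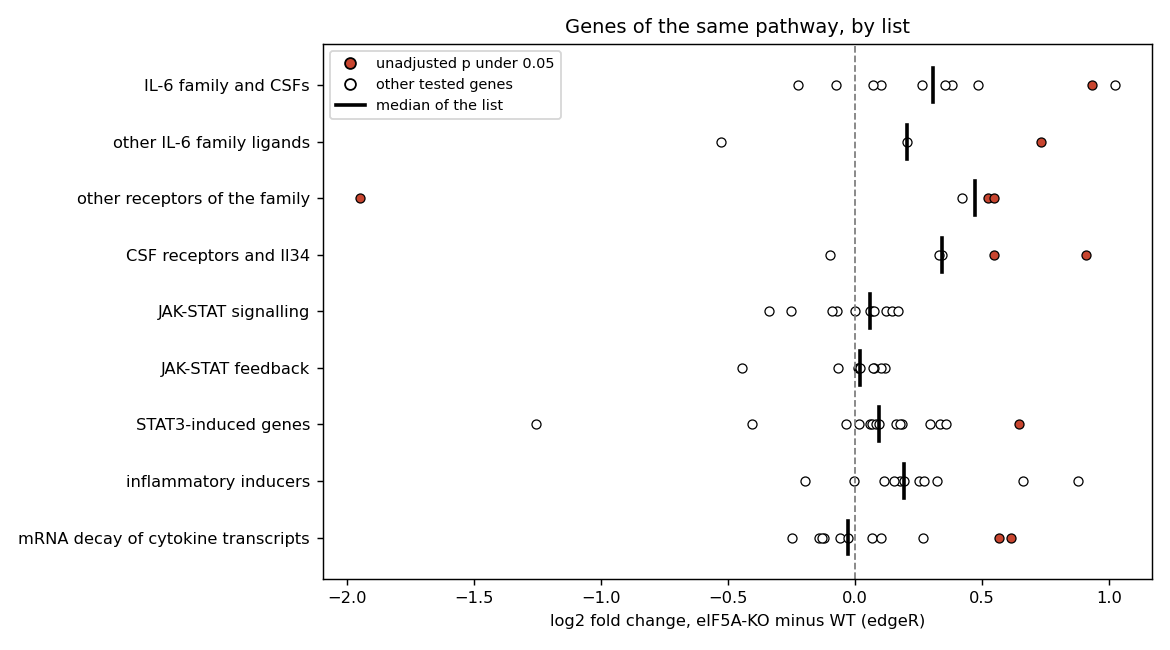
Log2 difference (eIF5A-KO minus WT) of each tested gene among the 10 genes (top line) and in the 8 pathway lists, 1 point per gene, filled where the unadjusted p was under 0.05, with a bar at the median. The medians of the 8 lists ran from -0.029 for mRNA decay to 0.47 for the other receptors of the family.

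The other receptors of the IL-6 family had 3 of 4 tested genes past the unadjusted threshold, against 6.76% of all tested genes. Of these 3, 2 were higher and 1 lower, and the list had a median of 0.47. Il11ra1, the IL-11 receptor alpha chain, was at 69.7, 46.6 and 59.6 CPM in WT and 101, 96.0 and 59.7 CPM in eIF5A-KO. Near-identical copies of Il11ra1 (Gm13305 and Il11ra2, 98.6% and 99.0% identical over their aligned stretch) make its count uncertain. Cntfr, which pairs CNTF with gp130, was at 7.43, 6.89 and 6.26 CPM and at 10.4, 11.2 and 8.16 CPM, without overlap. Il31ra, which pairs with Osmr to bind IL-31, was lower, at 1.36, 3.55 and 1.00 CPM against 0.0612, 0.474 and 0.737 CPM. The 0.0612 rests on 1 count, under the 0.184 CPM that 3 counts give in that library. The edgeR adjusted p-values of Il11ra1, Cntfr and Il31ra were 0.728, 0.697 and 0.535.

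Receptors of the colony-stimulating factors were mostly scarce. Csf1r, the receptor of CSF1, was at 2.52, 3.13 and 2.89 CPM in WT and 4.83, 3.73 and 2.38 CPM in eIF5A-KO, and the Csf1 transcript exceeded it per length by 518 to 929 times. Csf2ra was at 2.33, 4.24 and 2.72 CPM and at 5.08, 3.49 and 3.23 CPM. Neither passed an unadjusted p of 0.05. Csf3r did not pass the expression filter and had 60 counts in WT replicate 2 and 2 to 9 in the other 5 libraries. The neutrophil genes S100a8, S100a9 and Mpo were highest in that same library, at 16.3, 26.7 and 14.5 CPM. The common beta chain Csf2rb and its paralogue Csf2rb2 passed the unadjusted threshold, as did 6.76% of all tested genes. They were 2 of 5 tested genes in a list that also holds the ligand gene Il34. Csf2rb was at 22.8, 28.9 and 26.4 CPM in WT and 39.7, 31.7 and 42.9 CPM in eIF5A-KO (edgeR unadjusted p = 0.0159, adjusted p = 0.560). Csf2rb2 was at 11.4, 18.2 and 19.0 CPM and at 29.2, 26.9 and 35.4 CPM (unadjusted p = 0.00308, adjusted p = 0.398 by edgeR). They are 95.1% identical over 3131 bases, so reads of one may be counted to the other.

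The genes with the most similar profiles to Il6 and Il6st were named from 13610 genes by the root mean square difference of centred log2 CPM over the 6 libraries. Ccpg1os (0.11), Ribc1 (0.12) and Adgrg3 (0.12) were closest to Il6. Each was highest in eIF5A-KO replicate 3, as Il6 was, and Ccpg1os and Ribc1 were low, at 2.23 to 4.59 and 1.66 to 3.97 CPM. Whether genes picked as nearest from so many are closer than chance gives was not tested. Fam13b (0.046), Rab11fip1 (0.064) and Frs2 (0.065) were closest to Il6st. For scale, the SD of the log2 CPM was 0.38 for Il6 and 0.26 for Il6st over the same libraries.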

How the data were processed

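RNA-seq was compared between 3 WT and 3 eIF5A-KO libraries, grouped by the genotype in the labels. Per the methods and labels the authors made libraries from total RNA with an NEBNext Ultra kit, strand not stated, and mapped reads to mm10 with HISAT (version not given in the sources used here). The deposited gene counts are raw, and the deposited FPKM values are those counts per kilobase, divided by a size factor times the geometric mean of the library totals.
Counts were tested with edgeR 4.0.16 (R 4.3.3; filterByExpr, TMM factors, quasi-likelihood F-test, prior count 2 for fold changes, Benjamini-Hochberg adjustment over 14679 genes, threshold 0.05), and the fit was checked on simulated counts. DESeq2 1.42.0 and limma 3.58.1 were alternatives, with 16 settings in all. FPKM was used to compare levels between genes, for ratios between genes within a library, and in the limma alternatives. Replicates of 1 group differed beyond sampling noise. Near-identical copies were sought with blastn 2.17.0 (at least 200 bases at 90% identity). The genes and lists were chosen with earlier results of these data known. Named beyond the 10 genes were the partners and mediators listed in the pathway, and from each list up to 3 tested genes of smallest unadjusted p under 0.05; S100a8, S100a9, Mpo and Pecam1 were named after their values were seen. A gene that this rule names is not reported here.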

Additional observations from a re-analysis of the deposited data

How the results depend on the processing

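Lif and Csf1 stayed higher in eIF5A-KO under all 16 alternatives, at 0.74 to 1.06 and 0.34 to 0.45 on the log2 scale. Since their groups do not overlap, leaving out a library could hardly change the sign of these 2 genes. Il6, Il11 and Il6ra also kept their signs, at 0.15 to 0.68, 0.39 to 1.335 and -0.47 to -0.054. The edgeR adjusted p of Lif ran to 0.9998 and was 0.00419 with no expression filter, the setting with 1 of the 10 genes past the adjusted test. At an unadjusted p of 0.05, 1 of 10 passed in the reported analysis (6.76% of tested genes), 2 with library size alone (6.58%), 3 with no filter (6.32%), 2 with at least 10 counts (6.74%), 3 by DESeq2 (6.87%) and 1 to 4 with a library left out (3.88% to 10.2%). Non-overlapping genes numbered 2 of 10 (12.5% of tested genes), and 2 to 4 with a library left out (16.5% to 27.3%). With a library left out, 5 genes changed sign, and their log2 differences ran from -0.045 to 0.58 for Csf2, -0.31 to 0.51 for Csf3, -0.22 to 0.10 for Il6st (0.098 without WT replicate 2), -0.013 to 0.25 for Lifr and -0.032 to 0.17 for Osmr. The cause was not tested. All genes past the adjusted test numbered 3, 0 with DESeq2 size factors in edgeR, with library size alone, with at least 10 counts, with voom and with limma on log2 FPKM plus 1 or plus 0.1 (992, 966, 907, 961, 980 and 980 in that order at an unadjusted p of 0.05), 249 with no filter, 92 by DESeq2, and 0 to 56 with a library left out (585 to 1530 unadjusted), the 56 being without WT replicate 1. With a replicate block, 24 genes passed the adjusted test and 2 of the 10 the unadjusted one (5.96% of tested genes). Same-numbered libraries deviated together with r = 0.094, -0.196 and 0.109, and not every library correlated best with its own number. With 3 libraries per group, the deviations within a group depend on one another. These values therefore cannot show whether the numbers pair the libraries. Csf2 rests on 13 to 30 counts a library, the fewest in total of the 10 genes.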
